A study of Mus musculus with 2 samples.

Results

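Complex I was followed through the 43 genes whose symbol in the platform annotation starts with Nduf, out of 19938 genes measured by probe sets that carry 1 gene symbol. They were read by 48 probe sets, and comprise subunits of respiratory complex I, its Ndufaf assembly factors, and the pair Ndufa4 and Ndufa4l2. RNA came from skeletal muscle of the hindlimb. One genotype overexpresses a Syn4 (syntaxin 4) transgene and the other is wild type, both are male C57BL/6J mice fed standard chow, and each is represented by 1 microarray. The sources used here give neither the promoter of the transgene, the age of the mice, nor how many mice stand behind each array. Levels are log2 intensities after RMA, and each difference is the transgenic minus the wild-type log2 intensity. With 1 array per genotype there is no spread between mice, so no difference below was tested and no value carries an error.

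Complex I, the NADH:ubiquinone oxidoreductase, takes electrons from NADH in the mitochondrial matrix, passes them along a chain of iron-sulfur clusters to ubiquinone, and pumps protons across the inner membrane. It is L-shaped. The matrix arm holds the N module, which oxidises NADH, and the Q module, which reduces ubiquinone, and the membrane arm holds the proton pumps. Core subunits carry the chemistry, accessory subunits surround and stabilise them, and assembly factors help to build the complex without staying in it. Most subunits are encoded in the nucleus and the remaining core subunits by mitochondrial DNA. Oxidative muscle fibres are rich in this complex.

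Both arrays had a median log2 intensity of 6.06 over all probe sets. Stx4a, the mouse syntaxin 4 gene, was at 12.20 in the transgenic and 8.84 in the wild-type array, in the direction of the label. Muscle identity was plain in both arrays. Of 7 skeletal muscle markers, Ckm was at 14.40 in the transgenic and 14.43 in the wild-type array and Acta1 at 14.45 and 14.44 in the same order, and the list's differences ran from -0.03 for Ckm to 0.30 for Myod1.

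Every measured Nduf gene was lower in the transgenic array, by a small amount. All 43 genes had a negative difference, as did all 48 of their probe sets, whereas 49.6% of all genes were lower and 46.9% higher. The differences ran from -0.63 for Ndufaf4 to -0.01 for Ndufaf2, with a median of -0.22, or 1.16-fold lower, against a median of 0.00 over all genes. The middle of the distribution was narrow, with quartiles at -0.31 and -0.145. At a threshold of 1.2-fold (0.26 on the log2 scale), 15 members were lower and 0 higher, against 11.0% lower and 11.3% higher among all genes. At 1.5-fold (0.58), 1 member was lower, against 1.19% of all genes, and 0 were higher, against 1.76%. The members thus shared the sign of the difference, while the size of each was modest. In whole tissue, fewer cells of a type and less RNA per cell cannot be told apart.

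**Figure D1:**
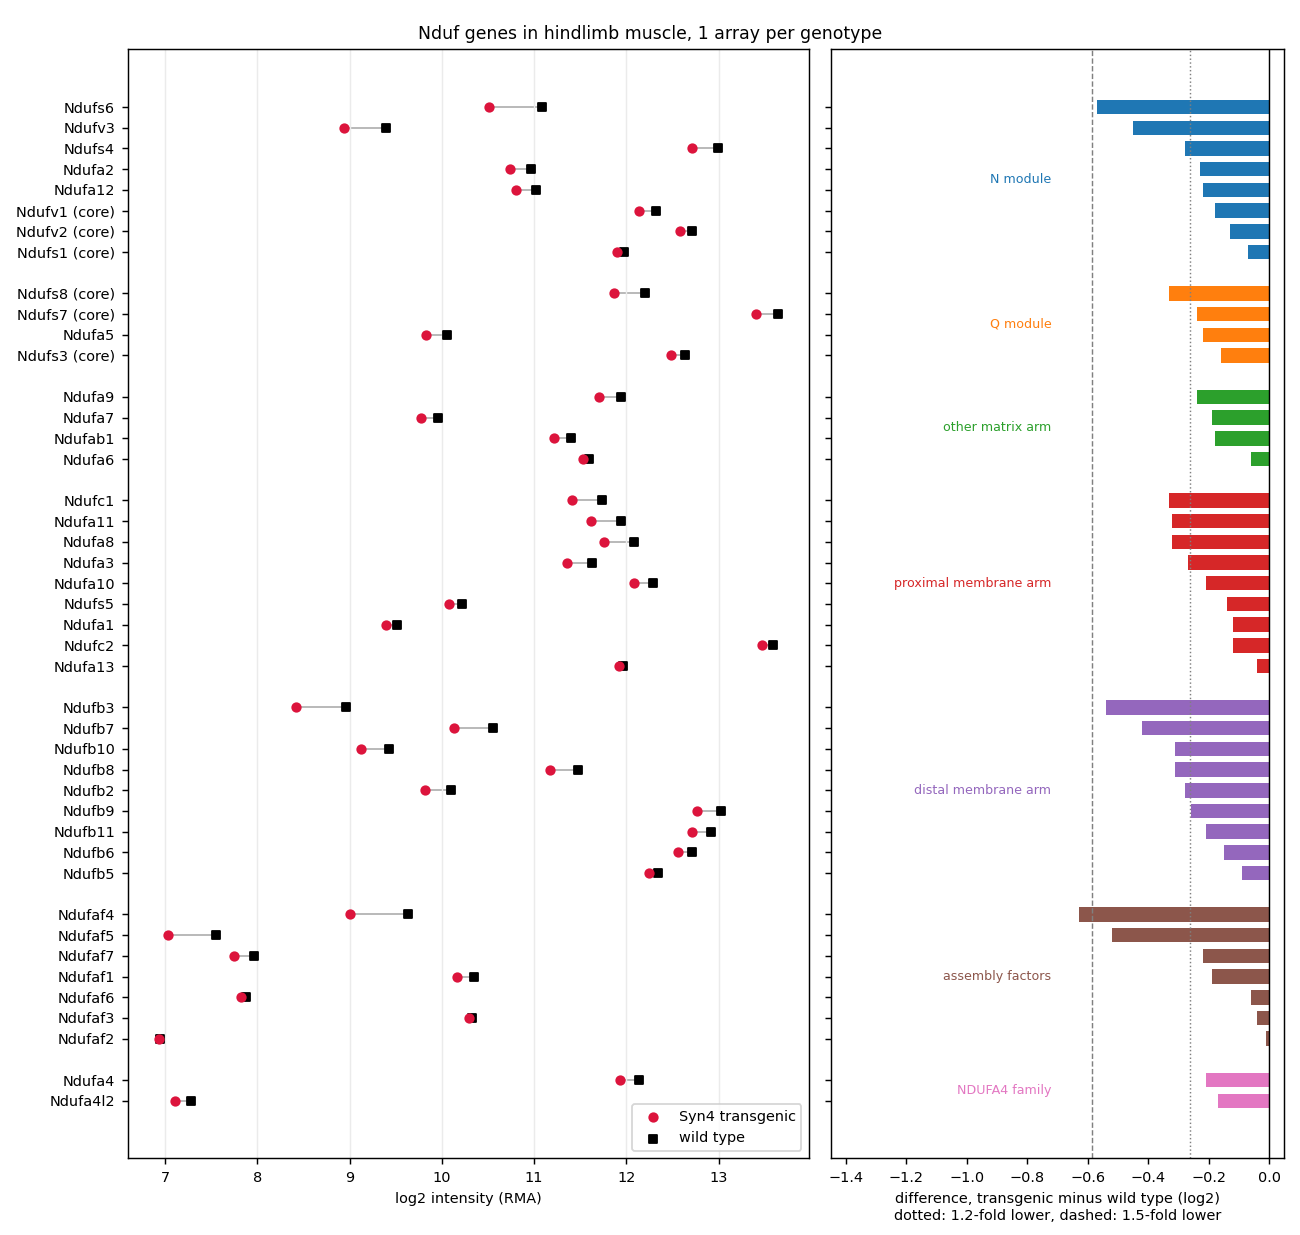
Left, log2 intensity of each Nduf gene in transgenic (red circles) and wild-type muscle (black squares), 1 array each, grouped by place in complex I. Right, the log2 difference of each gene, transgenic minus wild type, with dotted and dashed lines at 1.2-fold and 1.5-fold lower. All 43 bars point to lower values, and Ndufaf4 at -0.63 passes the dashed line.

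Bright genes as a whole had no such shared sign. Among the 2253 genes with a mean log2 intensity of at least 9.90, the lower quartile of the Nduf genes, 32 of which are in this group, the median difference was 0.00, with 49.8% lower and 48.3% higher. In the same bright group, 12.0% were lower and 12.1% higher by at least 1.2-fold. The shares at 1.5-fold were 2.26% lower and 2.04% higher. In that group, 15.8% of genes had a difference as low as the Nduf median of -0.22 or lower. Within the Nduf genes, the 22 brighter members had a median difference of -0.21 and the 21 dimmer members one of -0.22. Across the 43 genes, which share both arrays and are not independent replicates, level and difference were weakly related, with Pearson's r of 0.18 and Spearman's rho of 0.14. The lowest Nduf value, 6.93 for Ndufaf2 in the transgenic array, was above 5.47. That value is the 95th percentile over 1027 olfactory receptor genes, made mainly in the nose, of each gene's higher value across both arrays.

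**Figure D2:**
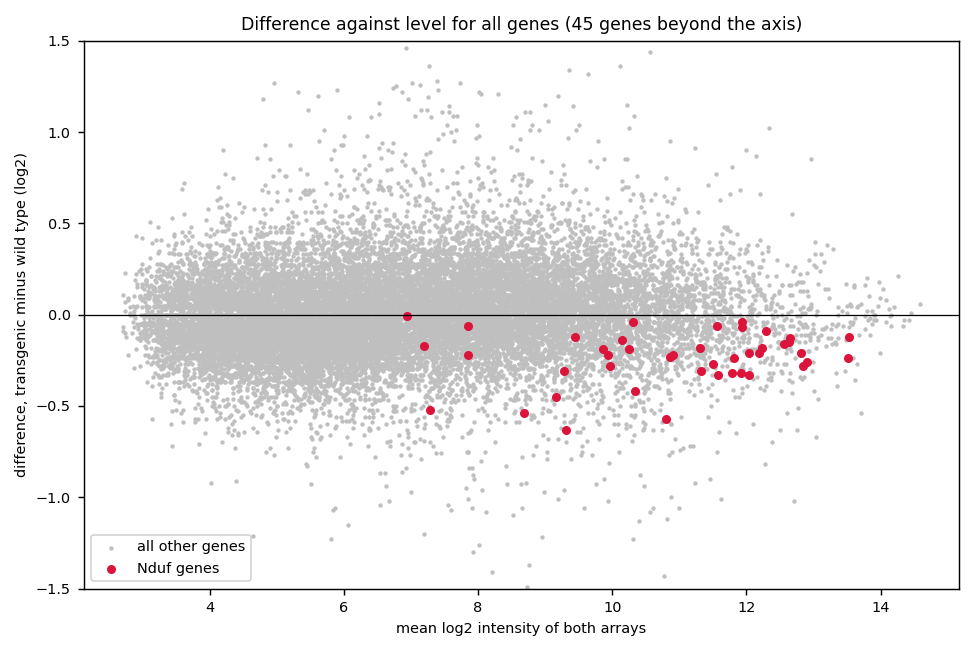
Log2 difference, transgenic minus wild type, against the mean log2 intensity of both arrays for the Nduf genes (red) and all other genes (grey), with 45 genes beyond the vertical axis. The Nduf points lie below 0 at every level, inside the cloud of other genes.

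The members with the largest negative differences came from different parts of the complex. Ndufaf4, an assembly factor of the Q module, was at a level of 9.00 in the transgenic and 9.63 in the wild-type array, a log2 difference of -0.63 or 1.55-fold. Ndufs6, a zinc-binding subunit that joins late at the N module, was at 10.51 in the transgenic and 11.08 in the wild-type array (-0.57), and RefSeq names a pseudogene, Ndufs6b, whose share of that signal is unknown. Ndufb3, a small subunit of the distal membrane arm, was at 8.42 in the transgenic and 8.96 in the wild-type array (-0.54). Apart from Ndufaf4, no member reached 1.5-fold. Ndufaf5, which in human cells hydroxylates the subunit NDUFS7, was at 7.03 in the transgenic and 7.55 in the wild-type array (-0.52). Ndufv3, an accessory subunit of the N module made in tissue-dependent isoforms, was at 8.94 in the transgenic and 9.39 in the wild-type array (-0.45). Each of these differences lay within the lowest 2.88% of all genes, and that of Ndufaf4 within the lowest 0.92%.

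At the other end lay members that were nearly equal in both arrays. Ndufaf2, a late assembly factor and a paralogue of the subunit NDUFA12, was at 6.93 in the transgenic and 6.94 in the wild-type array. Ndufaf3, the partner of NDUFAF4 in Q module assembly, was at 10.29 in the transgenic and 10.33 in the wild-type array (-0.04), against -0.63 for Ndufaf4. Ndufa13, also known as GRIM-19, was at 11.92 in the transgenic and 11.96 in the wild-type array (-0.04). Assembly factors thus stood at both ends of the range. Ndufaf6, an early assembly factor, was at 7.82 in the transgenic and 7.88 in the wild-type array (-0.06), and Ndufa6, a subunit of the matrix arm that binds an acyl carrier protein, was at 11.53 and 11.59 in the same order (-0.06).

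Since the members differed in the same direction, their promoters were searched on both strands for short motifs of regulators of mitochondrial genes. The 250 bases before 1 RefSeq start site (GRCm38.p6) per gene were used. Where a gene had several start sites, the one with the lowest genomic coordinate was kept, whatever the strand. Motifs at other start sites would be missed. The motifs were GCATGCG for NRF1, AAGGTCA for the oestrogen-related receptors (ERR), CCGGAAG for ETS factors such as GABPA, and AAGATGG for YY1. The NRF1 motif overlaps its own reverse complement, and both readings of 1 place were counted once. A promoter was matched for 38 of the 43 genes, and Ndufa2, Ndufa4l2, Ndufaf6, Ndufb9 and Ndufs1 were not matched. The 4 promoters of the lowest members that hold a motif are shown 5′ to 3′ on the gene's strand, ending at the base before the start site, with the motif in capitals.
Ndufaf4, chr4:24897833-24898082, plus strand: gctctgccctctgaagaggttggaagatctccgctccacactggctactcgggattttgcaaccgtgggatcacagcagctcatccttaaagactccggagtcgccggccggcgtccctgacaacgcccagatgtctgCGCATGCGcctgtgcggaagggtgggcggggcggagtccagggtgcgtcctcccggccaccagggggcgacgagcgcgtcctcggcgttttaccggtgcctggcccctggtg
Ndufb7, chr8:83566508-83566757, plus strand: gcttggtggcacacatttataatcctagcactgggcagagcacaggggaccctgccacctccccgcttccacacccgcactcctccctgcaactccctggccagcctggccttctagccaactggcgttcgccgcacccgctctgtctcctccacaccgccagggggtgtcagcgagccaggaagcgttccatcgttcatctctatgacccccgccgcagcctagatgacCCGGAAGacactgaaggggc
Ndufa11, chr17:56717512-56717761, plus strand: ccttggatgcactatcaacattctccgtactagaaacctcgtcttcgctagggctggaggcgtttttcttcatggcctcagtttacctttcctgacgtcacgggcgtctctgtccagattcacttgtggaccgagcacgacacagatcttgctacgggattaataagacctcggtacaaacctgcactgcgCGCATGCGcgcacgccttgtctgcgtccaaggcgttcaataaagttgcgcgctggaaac
Ndufa8, chr2:36049339-36049588, minus strand: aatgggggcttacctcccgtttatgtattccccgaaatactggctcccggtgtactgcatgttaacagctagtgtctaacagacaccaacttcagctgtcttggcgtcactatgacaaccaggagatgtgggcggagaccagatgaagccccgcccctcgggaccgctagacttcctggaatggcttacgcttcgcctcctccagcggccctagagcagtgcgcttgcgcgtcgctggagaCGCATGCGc
The capitals mark NRF1 motifs in Ndufaf4, Ndufa11 and Ndufa8 and an ETS motif in Ndufb7. The NRF1 motif was in 4 of 38 member promoters (10.5%) and in 3.06% of 27025 promoters, and the fourth member that holds it is Ndufa6. The ETS motif was in 4 members (10.5%, against 7.14% of all promoters), namely Ndufb7, Ndufaf1, Ndufs3 and Ndufb6. The ERR motif was in 2 members, Ndufb2 and Ndufs5 (5.26%, against 4.05%), and the YY1 motif in 0 of 38 (4.50% of all promoters). Bases after the start site were not searched, so a motif there would be missed. The 4 members with the NRF1 motif had a median difference of -0.32, from -0.63 for Ndufaf4 to -0.06 for Ndufa6, and the 34 without it a median of -0.215, from -0.57 to -0.01. These are matches of letters and not binding sites. The 27025 promoters were not limited to genes measured here or active in muscle, and no motif share was tested.

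The N module, where NADH is oxidised, had 8 measured genes with a median difference of -0.225 (mean -0.27). Its core subunits lay nearer to wild type than its accessory ones. Ndufv1, which binds NADH and the flavin cofactor, was at 12.14 in the transgenic and 12.32 in the wild-type array (-0.18). Ndufv2, which carries an iron-sulfur cluster, was at 12.58 in the transgenic and 12.71 in the wild-type array (-0.13). Ndufs1, the largest subunit, with several iron-sulfur clusters, was at 11.90 in the transgenic and 11.97 in the wild-type array (-0.07), the smallest difference of the module. The accessory subunits, beside Ndufs6 and Ndufv3, were each at least 0.22 lower. Ndufs4, whose loss in mice models Leigh syndrome, differed by -0.28, Ndufa2 by -0.23 and Ndufa12 by -0.22, the last with a named pseudogene.

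In the Q module, which hands electrons to ubiquinone, 4 genes were measured, with a median difference of -0.23. Ndufs8, which carries iron-sulfur clusters, was at 11.87 in the transgenic and 12.20 in the wild-type array (-0.33), the largest difference of the core subunits. Ndufs7, which holds the last cluster before ubiquinone, was at 13.40 in the transgenic and 13.64 in the wild-type array (-0.24). Ndufs3 was at 12.48 in the transgenic and 12.64 in the wild-type array (-0.16), and its second probe set gave -0.19. The accessory subunit Ndufa5 differed by -0.22.

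The remaining subunits of the matrix arm differed least by mean, at -0.17 over 4 genes with a median of -0.185. Ndufab1, the mitochondrial acyl carrier protein, which also serves fatty acid synthesis in the matrix, was at 11.22 in the transgenic and 11.40 in the wild-type array (-0.18), with the same difference on its second probe set and a named pseudogene. Ndufa9 differed by -0.24 and Ndufa7 by -0.19, with Ndufa6 at -0.06 as given above.

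Along the membrane arm, the distal part had the lowest median of the subunit groups. Its 9 genes had a median of -0.28, and 5 of them were lower by at least 1.2-fold, against 11.0% of all genes. After Ndufb3 came Ndufb7, which faces the intermembrane space, at 10.13 in the transgenic and 10.55 in the wild-type array (-0.42). Ndufb10 and Ndufb8 both differed by -0.31, Ndufb2 by -0.28 and Ndufb9 by -0.26. The X-linked Ndufb11 differed by -0.21 on its brighter probe set and by -0.33 on the other, the widest gap between probe sets of any member. Ndufb6 (-0.15) and Ndufb5 (-0.09) were closest to wild type. In the proximal membrane arm, 4 of 9 genes were lower by at least 1.2-fold, against the same 11.0%, and the median was -0.21. Ndufc1 differed by -0.33 on both probe sets. Ndufa11, which links complex I to other respiratory complexes, differed by -0.32 and -0.36 on its 2 probe sets and has a named copy, the transcribed pseudogene Ndufa11b. Ndufa8 was at 11.76 in the transgenic and 12.08 in the wild-type array (-0.32), and its promoter is among those printed above. Ndufa3 differed by -0.27 and Ndufa10 by -0.21. Smaller differences were found for Ndufs5 (-0.14), which has a named pseudogene, the X-linked Ndufa1 (-0.12) and Ndufc2 (-0.12). Ndufc2 had the highest mean signal of the members, at 13.47 in the transgenic and 13.59 in the wild-type array. Probe sets annotated to Ndufb4 together with Ndufb4b, outside the rule because they carry both symbols, gave -0.25 and -0.21. Another, annotated to Ndufs5 together with its pseudogene and outside the rule for the same reason, gave -0.08.

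Taken by role, the 6 measured core subunits had a median difference of -0.17 with a range from -0.33 to -0.07, and the 28 accessory subunits one of -0.235 with a range from -0.57 to -0.04. The ranges overlap, and the difference between the roles was not tested. Of the core subunits 1 of 6 was lower by at least 1.2-fold, and of the accessory subunits 12 of 28, against 11.0% of all genes.

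The 7 Ndufaf assembly factors had a median of -0.19, with Ndufaf7, a methyltransferase, at -0.22 and Ndufaf1, a member of the assembly complex of the membrane arm, at -0.19 between the ends described above. Assembly factors that are not named Nduf were lower as well, in 13 of 13 measured genes, against 49.6% of all genes. Their median was the same as that of the Nduf genes (-0.22). By at least 1.5-fold 0 of 13 were lower, against 1.19% of all genes. Tmem70, which also serves the ATP synthase, was lowest at -0.38 and Aifm1 highest at -0.04. Foxred1 (-0.33), Tmem126a (-0.31), Tmem186 (-0.31), Dmac2 (-0.22), Dmac1 (-0.20) and Lyrm2 (-0.08) also lay between these ends, and Coa1 was not analysed here. So did Acad9 (-0.19), Tmem126b (-0.24) and Ecsit (-0.12), which work with Ndufaf1 on the membrane arm, Timmdc1 (-0.23) and Nubpl (-0.14), which is needed for the iron-sulfur clusters.

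Ndufa4 and Ndufa4l2 carry the name of the complex but are not held to be part of it. Ndufa4, now placed in cytochrome c oxidase, was at 11.93 in the transgenic and 12.14 in the wild-type array (-0.21). Ndufa4l2, its paralogue that responds to hypoxia, was at 7.11 in the transgenic and 7.28 in the wild-type array (-0.17). Both differences lay inside the range of the true subunits.

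Other nuclear genes of oxidative phosphorylation and mitochondrial translation were lower in the same array. Of 40 genes of complexes II to V, 40 were lower, against 49.6% of all genes. Their median was -0.155 (mean -0.19), with a range from -0.40 for Atp5o to -0.02 for Atp5d. By complex the median was -0.265 over 4 genes of complex II, -0.19 over 9 of complex III, -0.11 over 12 of complex IV and -0.15 over 15 of complex V. At the 1.2-fold threshold the shares lower were 34.9% of the Nduf genes, 37.5% of complexes II to V and 41.6% of the mitochondrial ribosomal protein genes, against 11.0% of all genes. Of 77 mitochondrial ribosomal protein genes, 69 were lower, 3 equal and 5 higher, with a median of -0.24, a range from -0.66 for Mrpl14 to 0.15 for Mrps16, and 2 genes lower by at least 1.5-fold (1.19% of all genes). The lower level of the Nduf genes was thus shared with these lists, and none of the differences between lists was tested.

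**Figure D3:**
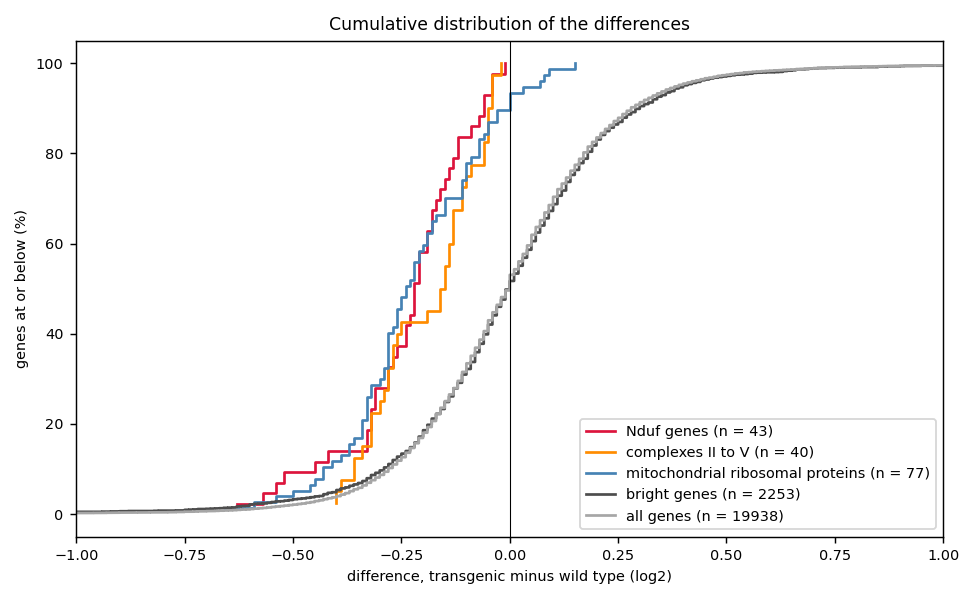
Share of genes (percent) at or below each log2 difference, transgenic minus wild type, for the Nduf genes, complexes II to V, mitochondrial ribosomal proteins, the 2253 bright genes with a mean log2 intensity of at least 9.90, and all genes. The medians of the mitochondrial lists (-0.22, -0.155 and -0.24) lie left of those of both background curves, which are 0.00, while the background curves reach further down at the low end.

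ND3 and COX2, the mitochondrially encoded genes with probe sets of their own, did not share the lower level. ND3, a core subunit of the membrane arm encoded by mitochondrial DNA, was read by 2 probe sets, one at 12.54 in both arrays and the other at 13.36 in both arrays. COX2, of complex IV, was higher in the transgenic array on both of its probe sets, at 13.87 in the transgenic and 13.77 in the wild-type array and at 13.74 and 13.67 in the same order. These genes were looked up after the other values were seen. A probe set shared by ND6 and the unrelated nuclear gene Acsm2 was at 9.39 in the transgenic and 9.60 in the wild-type array (-0.21). Acsm2 had a mean level of only 4.08 on a probe set of its own, with a difference of 0.00. The shared signal may therefore be mainly that of ND6, which is also encoded by mitochondrial DNA.

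Nuclear regulators of mitochondrial genes were mixed. Of 14 regulators, 10 were lower and 4 higher, with a median of -0.07, where 49.6% of all genes were lower. By at least 1.2-fold 3 were lower (11.0% of all genes), and 0 were lower by 1.5-fold (1.19%). The lower ones were led by nuclear receptors. Esrrb differed by -0.50, the fatty acid sensor Ppara by -0.39, Esrrg by -0.31, and Esrra, which drives respiratory genes together with PGC-1 coactivators, by -0.22. Coactivators themselves were near equal, with Ppargc1a at 10.48 in the transgenic and 10.53 in the wild-type array (-0.05) and Ppargc1b at -0.04. Nrf1, whose motif was searched above, was at 7.35 in the transgenic and 7.52 in the wild-type array (-0.17). Gabpa, the DNA-binding subunit of an ETS factor, was at 8.91 in the transgenic and 8.84 in the wild-type array (0.07), and Yy1 was highest at 0.21. The factors of mitochondrial transcription lay between, with Tfam at -0.17, Tfb2m at -0.09 and Polrmt at -0.04. Tfb1m was at 0.08 and Ppard at 0.04.

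Markers of fibre type and of other cells differed between the same 2 arrays. For scale, 49.6% of all genes were lower and 46.9% higher in the transgenic array. Slow fibre genes, from fibres rich in mitochondria, were lower in 13 of 14 cases with a median of -0.63, from -1.02 for Myl3 to 0.95 for Sln. Their summed linear intensity was 43493 in the transgenic and 68715 in the wild-type array, or 63.3%. The corresponding sum over the Nduf genes was 86.5% of wild type. The 15 fast fibre genes had a median of 0.02, from -0.24 for Myoz1 to 0.36 for Myh1, and summed to 221230 in the transgenic and 218079 in the wild-type array. Their median level was 13.92 in the transgenic and 13.94 in the wild-type array, against 11.49 and 12.275 for slow fibre genes. Slow and fast fibre genes were thus not compared at like levels, and an effect of level on their differences was not tested. White adipocyte markers were higher in 8 of 8 measured cases with a median of 1.385, from 0.22 for Fabp4 to 3.20 for Lep, and summed to 6552 in the transgenic and 3640 in the wild-type array. Sln was at 6.10 in the transgenic and 5.15 in the wild-type array, the second value under the olfactory receptor percentile of 5.47, so its difference is uncertain in size. Lep was at 9.06 in the transgenic and 5.86 in the wild-type array, close to that percentile in the second. Fibroblast markers were higher in 6 of 6 cases (median 0.21, from Dcn at 0.14 to Lum at 0.74) and summed to 15008 in the transgenic and 13130 in the wild-type array. Endothelial markers (median 0.02 over 5, from Kdr at -0.44 to Vwf at 0.32) and macrophage markers (median 0.09 over 5, from Adgre1 at -0.12 to Csf1r at 0.17) had medians near 0, with sums of 4317 in the transgenic and 4376 in the wild-type array for endothelium and 1865 and 1758 in the same order for macrophages. The part of fibre type and of other cells in the lower Nduf values was not tested.

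**Figure D4:**
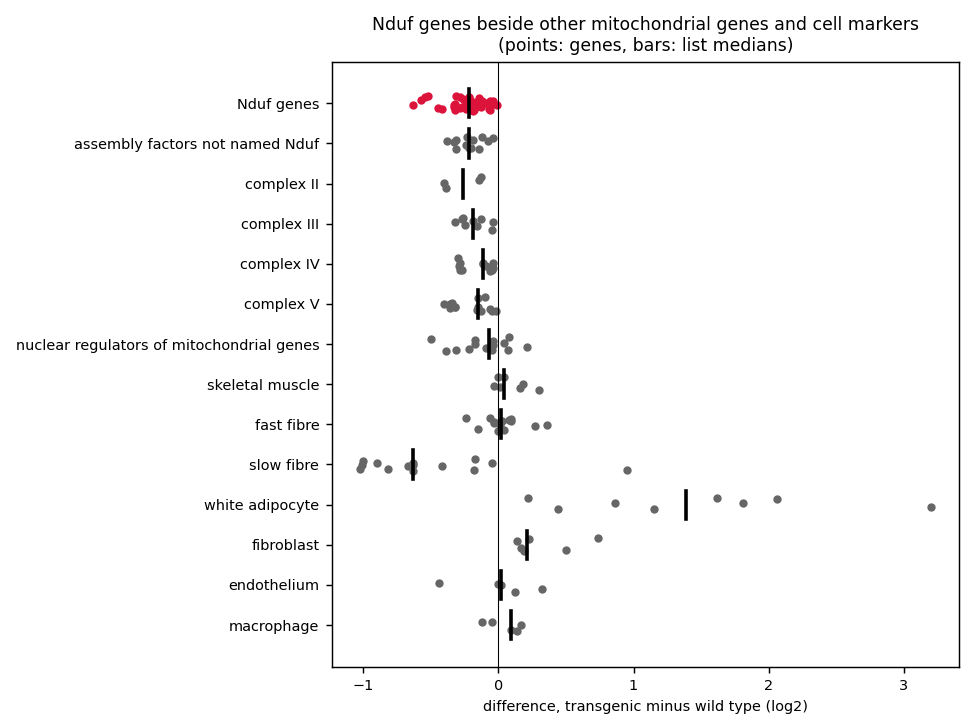
Log2 difference, transgenic minus wild type, of each gene (points) and the list median (bars) for the Nduf genes and for lists of other mitochondrial genes and cell markers. The Nduf median of -0.22 lies between those of slow fibre genes (-0.63) and fast fibre genes (0.02).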

How the data were processed

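Values were used as deposited, as log2 intensities to 2 decimals for 35556 probe sets on each of 2 arrays. They were made with RMA and Partek, per the submitters' processing notes, which give no version or setting. RMA usually includes background correction, quantile normalization and a robust summary, and it compresses large ratios. No scanner intensities were used, and 1 array per genotype limits the precision of each value.

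Gene names came from the platform annotation: 21789 probe sets had 1 symbol, 1621 several and 12146 none. All 43 Nduf symbols matched a RefSeq gene table (GRCm38.p6) through Entrez identifiers. Of several probe sets of a gene, the one with the highest mean was used, which concerned 5 members. No level filter was applied. Calculations used Python 3.11.15, pandas 2.3.3 and statsmodels 0.14.6, and counting steps were tested on simulated data.

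Named were all members with their differences, levels for core subunits, for both ends of the range and for Ndufa4, Ndufa4l2 and Ndufab1, every regulator, and the ends of each other list. Members and lists were chosen with earlier results of these data known. Mitochondrially encoded genes and mitochondrial ribosomal proteins were added after values were seen. Alternatives covered probe set choice, scaling, level filters, membership, the fold threshold and the background genes.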

Additional observations from a re-analysis of the deposited data

How the results depend on the processing

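All Nduf genes retained were lower in the transgenic array under each of the 10 alternatives for that count, from 36 of 36 without the Ndufaf assembly factors to 43 of 43 under median centring, removal of a loess trend and repeated quantile normalization. Of these, only removal of a loess trend and repeated quantile normalization could have turned a sign. The others kept genes that were already lower, averaged probe sets that were all lower, or moved every gene further down. The median difference stayed between -0.24 (median centring) and -0.21 (loess), and the count lower by at least 1.2-fold between 13 and 17, against 15. The count lower by at least 1.5-fold was 1 and moved to 2 with median centring, to 3 with repeated quantile normalization, to 0 without assembly factors (Ndufaf4 is one) and to 0 at a threshold of 2-fold. Median centring moved all genes by 0.02. The alternative without the genes that have a named copy or pseudogene, chosen after seeing the data, left 38 genes, all lower, with a median of -0.215. Among bright genes only, the share lower by at least 1.5-fold was 2.26% against 1.19% of all genes. No paired analysis was possible because each genotype has 1 array, and no array could be left out. Signal over background was not given in the deposited values.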
